A study of Mus musculus and Homo sapiens with 4 samples.

Results

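A set of 8 genes of cholesterol metabolism were examined in mouse embryonic fibroblasts (MEFs): the synthesis enzymes Hmgcs1, Idi1, Fdft1, Sqle, Lss and Dhcr7, the regulator Insig1 and the oxysterol enzyme Ch25h. They were taken by symbol, and each of the 8 names stands on 1 of the 23329 entries of the MEF data. Poly-A RNA was sequenced from fibroblast lines derived at E13.5 from embryos of wild-type and NEAT1 knockout (KO) C57BL/6 mice. Both lines were at passage 2 to 3, in a mixture of DMEM and Ham's F12 with 10% fetal calf serum, and no treatment is named for either. How NEAT1 was deleted, and how many embryos contributed to each line, are not given in the sources used here. Each genotype is represented by 1 library, so no difference has a replicate check, no P-value is given, and the genotype cannot be told apart from any other difference between the cell lines. The authors' values are RPKM, that is mapped sequence scaled by the length of an entry and by the size of the library, and the log2 ratios below are of KO plus 1 over wild type plus 1, which understates differences of low entries.

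Animal cells build cholesterol from acetyl-CoA through mevalonate, isoprenoid diphosphates and squalene to lanosterol, which is then trimmed to cholesterol. The pathway is controlled by SREBP2, a transcription factor held in the endoplasmic reticulum by SCAP and the INSIG proteins while sterols are plentiful, and released to the nucleus when they run low. HMGCS1 makes HMG-CoA, IDI1 isomerises isopentenyl diphosphate, FDFT1 joins farnesyl diphosphate into squalene, SQLE and LSS turn squalene into lanosterol, and DHCR7 performs the last reduction. INSIG1 is both a brake on SREBP processing and a product of an SREBP target gene. CH25H hydroxylates cholesterol to an oxysterol that binds INSIG proteins and restrains SREBP processing, and its gene is known as interferon-inducible in macrophages and other cells.

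Ch25h was the only one of the 8 genes past 2-fold. Its level was 9.83 RPKM in the wild-type library against 50.7 RPKM in the KO library, which gave a ratio of 5.16 and a log2 ratio of 2.25. The other 7 genes had log2 ratios from -0.06 (Idi1) to 0.37 (Dhcr7), with a median of 0.13. The counting intervals of the ratio lay above 1 for Hmgcs1, Fdft1, Lss and Dhcr7, and included 1 for Sqle, Insig1 and Idi1. These intervals cover counting error alone and take the RPKM scaling as given. The 6 of these 7 genes that reached 1 RPKM stood between percentiles 70.0 (Sqle) and 92.1 (Dhcr7) of the log2 ratios of entries at that level. Past 2-fold higher was 1 of 8 genes, where 0.977% of all entries and 1.99% of the 11463 entries that reached 1 RPKM in either library were. Past 2-fold lower was 0 of 8, against 0.334% of all entries and 0.68% of those 11463 entries. The median log2 ratio was 0.15 over the 8 genes, 0.0 over all entries and -0.06 over the 11463.

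**Figure D1:**
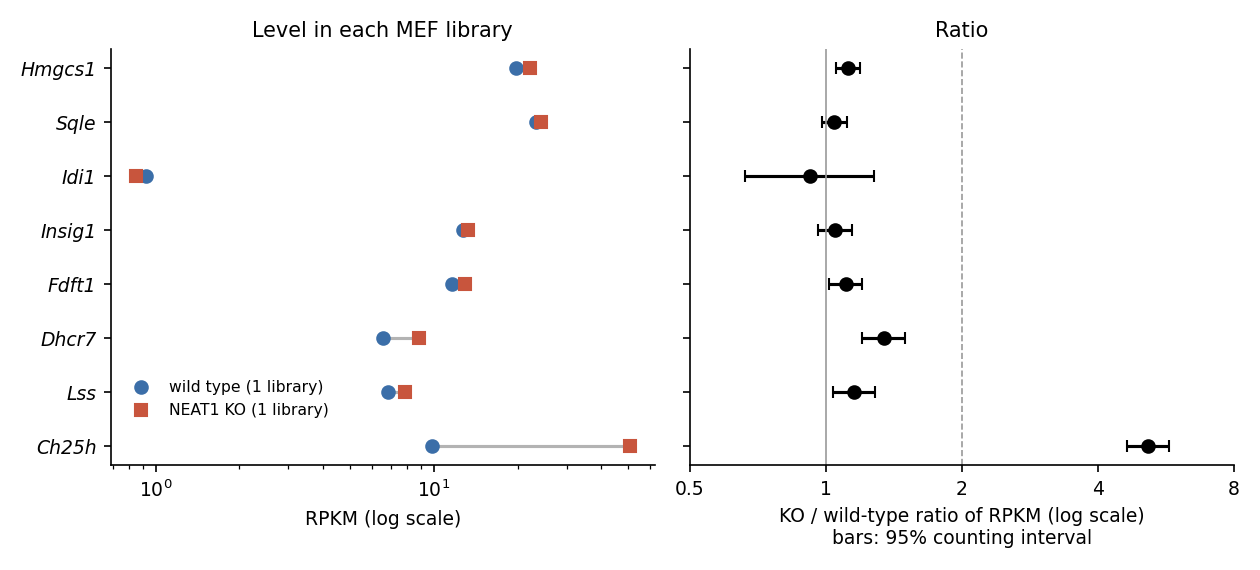
Left, RPKM on a log axis of the 8 genes in the wild-type (circle) and NEAT1 KO (square) MEF library, 1 library each. Right, the ratio of KO to wild type on a log axis with 95% counting intervals, with lines at ratios of 1 and 2; Ch25h lies at 5.16 and the other 7 genes between 0.92 and 1.34.

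The regulatory sequences of the genes that behaved differently are shown first. RefSeq promoters of build GRCm38.p6, each with 250 bases before the transcript start and 50 after, were matched for 6 of the 8 genes (Hmgcs1, Idi1, Insig1, Dhcr7, Lss and Ch25h). Those of Hmgcs1 (chr13:119690101-119690400, plus strand) and Insig1 (chr5:28071162-28071461, plus strand) are printed as sterol-responsive genes within 2-fold between the libraries, and that of Ch25h (chr19:34475099-34475398, minus strand) as the gene that was not. Capitals mark the sterol regulatory element TCACNCCAC and the NF-Y box CCAAT on either strand, which do not overlap here.
Hmgcs1: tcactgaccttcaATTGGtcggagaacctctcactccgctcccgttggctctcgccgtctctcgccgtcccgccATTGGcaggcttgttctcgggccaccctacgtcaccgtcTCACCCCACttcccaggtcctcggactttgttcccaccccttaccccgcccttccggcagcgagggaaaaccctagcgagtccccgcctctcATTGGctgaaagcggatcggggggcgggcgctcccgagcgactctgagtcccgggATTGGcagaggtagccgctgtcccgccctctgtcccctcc
Insig1: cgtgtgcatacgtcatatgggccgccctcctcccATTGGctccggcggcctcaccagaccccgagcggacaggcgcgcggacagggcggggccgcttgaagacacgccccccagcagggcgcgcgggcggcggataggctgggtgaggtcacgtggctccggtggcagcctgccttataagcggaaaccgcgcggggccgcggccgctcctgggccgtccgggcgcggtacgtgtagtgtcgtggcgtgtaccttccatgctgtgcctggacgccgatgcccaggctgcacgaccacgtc
Ch25h: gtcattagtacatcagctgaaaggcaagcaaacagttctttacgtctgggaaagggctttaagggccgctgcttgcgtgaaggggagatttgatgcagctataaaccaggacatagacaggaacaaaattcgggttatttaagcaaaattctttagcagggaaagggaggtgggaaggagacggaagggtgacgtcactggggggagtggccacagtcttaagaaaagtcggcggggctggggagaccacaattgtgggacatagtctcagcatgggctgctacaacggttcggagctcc

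The Hmgcs1 promoter held the letters TCACCCCAC from position -137 relative to the transcript start of the printed window, and 4 NF-Y boxes. That start lies 111 bases upstream of the start of the Hmgcs1 entry measured here. No other promoter of the 6 genes, or of the 16 synthesis enzymes with a promoter sequence, held the sterol regulatory element. Of all 300-base promoters, 1.24% held these letters. NF-Y boxes were present in 4 of the 6 promoters (Hmgcs1, Idi1, Insig1 and Lss) and in 12 of 16 enzyme promoters (75%), against 37.4% of all promoters. The Sp1 box GGGCGG was present in 5 of the 6, all but Ch25h, and in 87.5% of enzyme promoters, against 35.7% of all. The Ch25h promoter contained none of these letters, nor the interferon-type element GAAANNGAA, which no promoter of the 6 genes and 8.56% of all promoters held. Elements outside the window, or with other letters, were not searched.

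Mapped sequence could be counted back from the values for some entries. For single-exon entries the RPKM times the length was a whole multiple of 1 step per library in 100% of the 321 wild-type and 291 KO values examined (within 0.05), which gave 3066.41 Mb of mapped sequence in wild type and 2893.58 Mb in KO. The commonest count was 98 bases and the next 49, so 98 bases were taken as 1 counted unit. A length at which both base counts were whole was found for 25 of 35 genes sought, among them all 8. No interval is given for Neat1, Fdps, Mvd, Pmvk, Srebf1, Srebf2, Scap, Insig2 and Mbtps1, nor for Idi2, which was at 0 in both libraries. The intervals below are exact 95% intervals on such units. They cover counting error alone, and the spread between cultures is unknown.

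Ch25h (NM_009890) lies on chr19:34473784-34475135 as a single exon of 1352 bp. It was covered by 40801 bases in wild type and 198530 bases in KO, equal to 416 and 2026 units. The level was 9.83 RPKM (8.91 to 10.8) in wild type and 50.7 RPKM (48.5 to 53.0) in KO, with a ratio interval of 4.64 to 5.75. Among all entries Ch25h ranked 40 by log2 ratio. Of the 7413 entries that reached 5 RPKM in each library, 0.189% had a log2 ratio at or above that of Ch25h. In wild type Ch25h was the fifth most abundant of the 8 genes, and in KO it was the most abundant.

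The enzymes that carry acetyl units to squalene came next in the pathway. Hmgcs1 (NM_145942, chr13:119690462-119708077) had 19.7 RPKM in wild-type and 22.1 in KO cells, with a log2 ratio of 0.16 and a ratio of 1.12 (1.05 to 1.19). Fdft1 (NM_010191, chr14:63145150-63177793) had 11.7 and 12.9 RPKM, a log2 ratio of 0.13 and a ratio of 1.10 (1.01 to 1.20). The Fdft1 entry shares 774 bp with the entry of the neighbouring protease gene Ctsb, which had 145.6 and 182.8 RPKM. The MEF libraries are not stated to keep the strand, so reads of the 2 genes cannot be told apart there. Idi1 (NM_145360, chr13:8885606-8892396) was the exception in level, with 0.921 RPKM in wild-type and 0.847 in KO cells from 83 and 72 units. Its log2 ratio of -0.06 became 0.01 after quantile normalization and 0.0026 after centring on the median, so it has no stable sign. Its ratio of 0.920 had the widest interval, 0.661 to 1.28, so a difference smaller than about that range was not detectable at this depth. Its paralog Idi2 was listed at 0 in both libraries. Reads that also match a near-identical copy could be missing from Idi1, and how such reads were treated is not given in the sources used here.

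The later enzymes were also close between the genotypes. Sqle (NM_009270, chr15:59315092-59331193), the squalene epoxidase, had 23.3 RPKM in wild-type and 24.3 in KO cells, with a log2 ratio of 0.06 and a ratio of 1.04 (0.981 to 1.11). Lss (NM_146006, chr10:76531627-76553934) had 6.84 and 7.90 RPKM, a log2 ratio of 0.18 and a ratio of 1.16 (1.04 to 1.28). Its entry shares a span of 8064 bp with that of 4930483K19Rik, which had 0.998 and 1.14 RPKM. Whether exons are shared there was not examined. Dhcr7 (NM_007856, chr7:143823167-143848410) had 6.58 and 8.83 RPKM, a log2 ratio of 0.37 and a ratio of 1.34 (1.20 to 1.499), the largest of the 6 enzymes. Of the 7413 entries that reached 5 RPKM in each library, 14.4% had a larger absolute log2 ratio than Dhcr7, and the quartiles of those entries were -0.18 and 0.09.

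Insig1 (NM_153526, chr5:28071412-28078662), whose transcript is commonly read as a gauge of SREBP activity, stood at 12.7 RPKM in wild-type and 13.3 in KO cells. Its log2 ratio was 0.06 and its ratio 1.05 (0.960 to 1.14). Its paralog Insig2 had 11.1 and 12.3 RPKM, a log2 ratio of 0.13.

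In wild type the levels, which are per length and so comparable between genes, were in the descending order Sqle, Hmgcs1, Insig1, Fdft1, Ch25h, Lss, Dhcr7 and Idi1. The counting intervals overlapped for Insig1 (11.93 to 13.47 RPKM) and Fdft1 (11.0 to 12.4), and for Lss (6.33 to 7.38) and Dhcr7 (6.06 to 7.14). In KO Dhcr7 (8.21 to 9.50) stood above Lss (7.34 to 8.50) with intervals that still overlapped, and Insig1 (12.5 to 14.1) overlapped Fdft1 (12.1 to 13.7). Sqle (23.2 to 25.4) and Hmgcs1 (21.2 to 23.1) did not overlap in KO, nor did they in wild type (22.3 to 24.3 and 18.9 to 20.6).

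**Figure D2:**
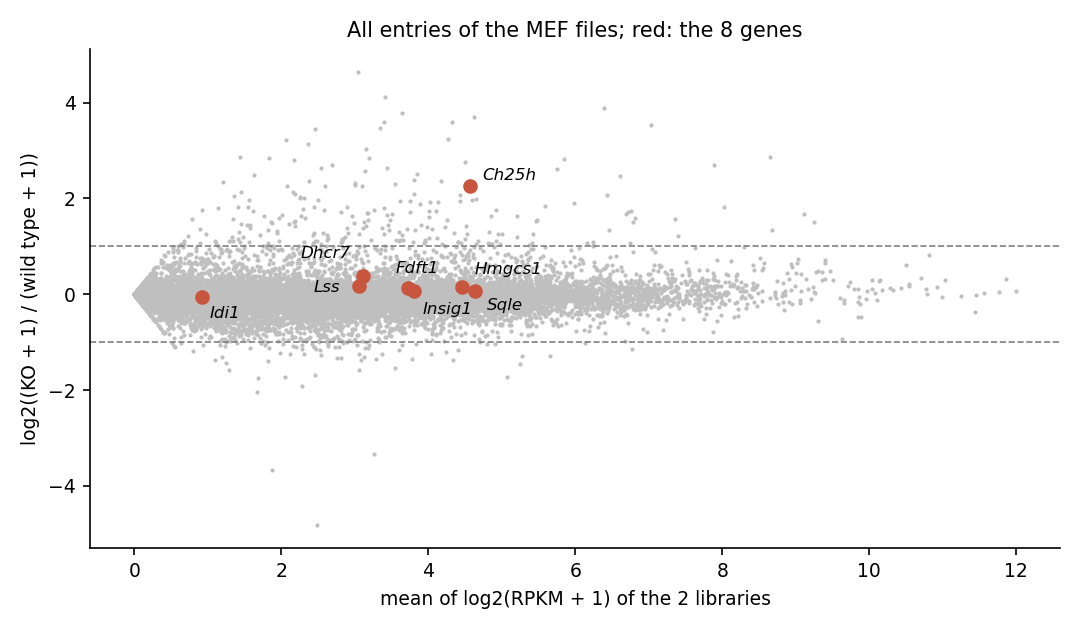
Each grey point is 1 of the 23329 entries, with the mean of log2(RPKM + 1) of the libraries on the horizontal axis and the log2 ratio of KO to wild type on the vertical axis; dashed lines mark 2-fold. Ch25h stands apart at 2.25, and the other 7 genes, in red, lie inside the main cloud between -0.06 and 0.37.

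The whole synthesis pathway was then followed with a list of 22 enzymes, which includes 6 of the 8 genes. All 22 stood on an entry, 20 reached 1 RPKM in each library, and 0 were past 2-fold or 1.5-fold in either direction. Of all 23329 entries, 0.977% were past 2-fold higher and 0.334% lower. Of the 11463 that reached 1 RPKM in either library, 1.99% and 0.68% were. A count of 0 in 22 is near these 2-fold shares. Past 1.5-fold were 553 of all entries higher and 593 lower. The 1.5-fold share of the entries that reached 1 RPKM was not computed, so the 1.5-fold count of 0 is not weighed. Of the 22, 11 were higher in KO, 10 were lower and Idi2 was at 0 in both. Fewer than 7034 of all 23329 entries were higher, and many had a log2 ratio of exactly 0. The median log2 ratio of the 22 was 0.01, against 0.0 over all entries and -0.06 over the 11463 that reached 1 RPKM in either library. After centring on the median of entries at 1 RPKM in both, it was 0.07. The summed level of the enzymes was 263.9 RPKM in wild-type and 264.2 in KO cells. The 16 enzymes outside the 8 genes divided into 6 higher and 9 lower, with a median log2 ratio of -0.01.

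Along the mevalonate branch, the thiolase Acat2 had 8.75 and 8.49 RPKM in wild type and KO. The kinases and decarboxylase that follow had log2 ratios of -0.01 to 0.09, with 16.6 and 16.5 RPKM for Mvk, 5.22 and 5.61 RPKM for Pmvk, and 14.8 and 15.1 RPKM for Mvd. Fdps, which makes farnesyl diphosphate, had 15.3 and 13.1 RPKM, a log2 ratio of -0.20. None of the enzymes named here differed by as much as 1.5-fold.

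After lanosterol, the demethylase Cyp51 had 17.5 and 17.1 RPKM. The sterol reductases Tm7sf2 and Lbr, the second also a protein of the nuclear envelope, had 2.30 and 2.62 RPKM and 7.07 and 6.00 RPKM. Sc4mol, the methyl oxidase also called Msmo1, had the lowest log2 ratio of the pathway, -0.38, with 19.8 and 15.0 RPKM and a ratio of 0.758 (0.692 to 0.831). The next enzymes had log2 ratios of -0.20 (Nsdhl, 7.37 and 6.29 RPKM), 0.18 (Hsd17b7, 7.37 and 8.46 RPKM), -0.01 (Ebp, 13.0 and 12.9 RPKM) and 0.18 (Sc5d, 12.9 and 14.8 RPKM). Sc4mol and Sc5d therefore differed in sign.

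**Figure D3:**
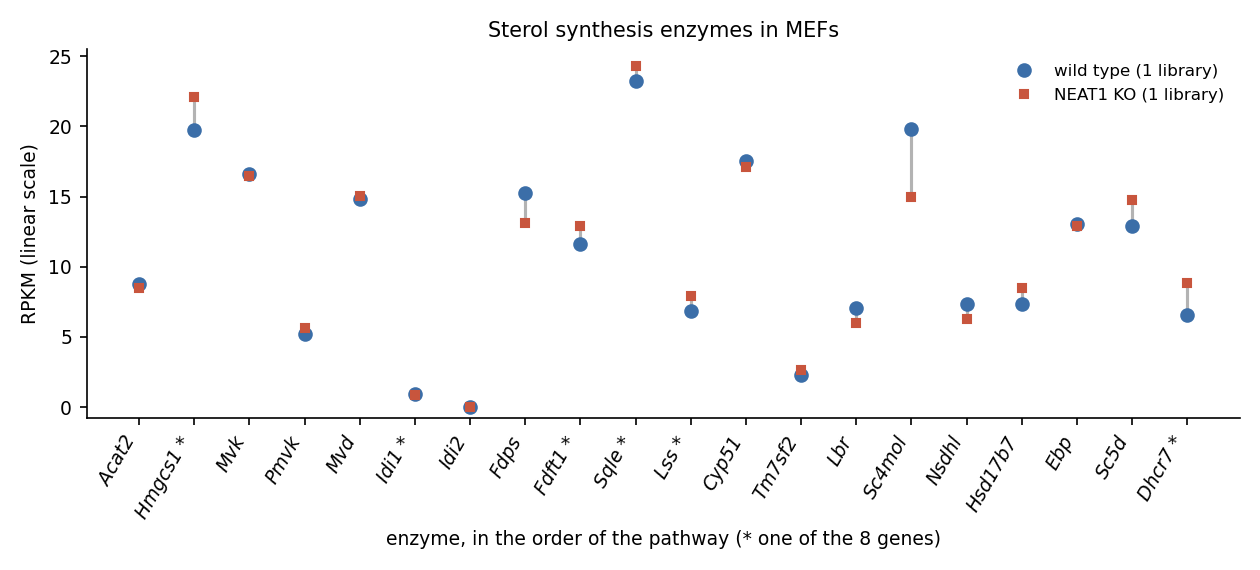
RPKM on a linear axis of 20 of the 22 sterol synthesis enzymes in the order of the pathway, for the wild-type (circle) and NEAT1 KO (square) MEF library, 1 library each; stars mark 6 of the 8 genes. The 2 symbols of each enzyme lie close together, and the widest gap is that of Sc4mol, 19.8 against 15.0 RPKM.

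Of the genes that control SREBP processing, 0 of 10 were past 2-fold, near the shares of all entries (0.977% higher and 0.334% lower). Srebf2, which encodes SREBP2, had 43.7 RPKM in wild-type and 54.5 in KO cells (log2 ratio 0.31). Srebf1 had 32.4 and 38.0 RPKM (0.23), and Scap, the escort of both, had 25.2 and 29.0 RPKM (0.19). Of the proteases that release SREBPs, Mbtps1 had 37.1 and 41.5 RPKM (0.16) and Mbtps2 had 4.99 and 3.76 RPKM (-0.33). The ubiquitin ligase gene Rnf139 had 6.17 and 4.64 RPKM (-0.35), and the haem-binding protein gene Pgrmc1 had 111.6 and 88.9 RPKM (-0.33). The list median was 0.10.

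Of the 9 oxysterol genes, Ch25h and 1 other were past 2-fold higher, where 0.977% of all entries were. Cyp7b1, which hydroxylates oxysterols made by CH25H and CYP27A1 on the way to bile acids, had 2.51 RPKM in wild-type and 7.30 in KO cells. Its log2 ratio was 1.24 and its ratio 2.91 (2.44 to 3.50). Cyp27a1, the mitochondrial sterol hydroxylase, had 0.495 and 0.536 RPKM, and Hsd3b7, which acts after Cyp7b1, had 4.72 and 5.46 RPKM (log2 ratio 0.18). Cyp39a1 had 1.13 and 0.790 RPKM, Cyp46a1 0.183 and 0.0787 RPKM, and Sult2b1 0.180 and 0.184 RPKM. Cyp7a1, the enzyme of bile acid synthesis in liver, was listed at 0 in both. Gpr183, the receptor for the oxysterol that CH25H and CYP7B1 make together, had 0.0977 and 0.0230 RPKM, below 0.1 RPKM in both libraries.

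Of the surrounding lipid genes 0 were past 2-fold with a pseudocount of 1, where 0.977% of all entries were past it higher and 0.334% lower, and with a pseudocount of 0.1 the efflux gene Abcg1 was. In the list of 12 uptake and trafficking genes, 7 were higher and 5 lower, with a median log2 ratio of 0.14. Beside the counts of higher genes in this paragraph, fewer than 7034 of all 23329 entries were higher. The median over the 11463 entries that reached 1 RPKM in either library was -0.06. The lipoprotein receptor gene Vldlr had 1.85 and 3.45 RPKM (0.64), and Npc2, the lysosomal cholesterol carrier, had 116.5 and 164.2 RPKM (0.49). Of 10 genes of LXR and cholesterol efflux, 8 were higher, with a median of 0.13. The largest log2 ratios of this list were those of the sterol exporters Abcg1 (0.0328 and 0.396 RPKM, 0.43) and Abca1 (2.15 and 3.09 RPKM, 0.37). The most abundant were the LXR gene Nr1h2 (44.1 and 50.2 RPKM) and its partner Rxra (24.8 and 22.7 RPKM). The medians were -0.07 for 5 esterification genes, among them Soat1 (25.6 and 22.8 RPKM) and Nceh1 (2.51 and 2.06 RPKM), and -0.02 for 17 fatty acid synthesis genes, such as Fasn (70.7 and 63.1 RPKM) and Elovl1 (76.3 and 72.5 RPKM). The 13 genes of the non-sterol isoprenoid branch divided into 6 higher and 7 lower, with a median of -0.03. Among those lower were Fnta at 30.9 and 24.1 RPKM and Rabggtb at 26.2 and 21.7 RPKM.

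**Figure D4:**
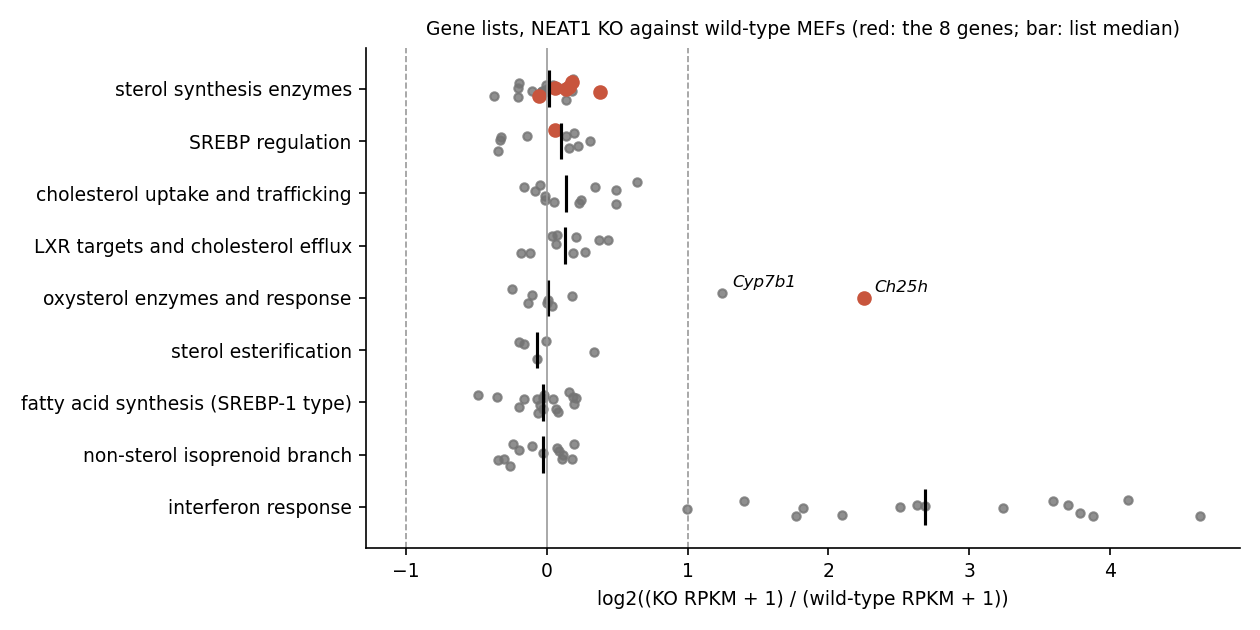
Log2 ratio of KO to wild type for each gene of 9 lists; the 8 genes are red, the black bar is the list median and dashed lines mark 2-fold. Among the lipid lists only Ch25h (2.25) and Cyp7b1 (1.24) lie beyond 2-fold, whereas 14 of 15 interferon-response genes do.

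Other differences between the libraries went with that of Ch25h. Neat1 itself had 29.5 RPKM in wild-type and 2.01 in KO cells, in the direction of the labels. Past 2-fold higher in KO were 14 of 15 interferon-response genes, where 0.977% of all entries were. The median of the list was 2.69, and Irf7 had 5.24 and 58.1 RPKM. All 10 macrophage markers were higher in KO, 3 of them past 2-fold (Lyz2, 13.9 and 34.7 RPKM; Cd68, 2.79 and 7.26 RPKM; Cd14, 1.67 and 4.73 RPKM). Their summed level was 22.5 RPKM in wild-type and 55.2 in KO cells, while the pan-leukocyte gene Ptprc had 0.0449 and 0.0813 RPKM and Aif1 0.0358 and 0.0763 RPKM. Beside the count of higher macrophage markers, fewer than 7034 of all 23329 entries were higher. The part of the interferon-response and macrophage genes in the Ch25h result was not tested. In a bulk library more cells that express a gene and more RNA per cell cannot be told apart.

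The fibroblast label held against its markers. All 11 fibroblast genes reached 1 RPKM in at least 1 library, with Vim at 3151 and 2448 RPKM and Col1a1 at 1477 and 1874 RPKM, while Pdgfra (4.18 and 13.8 RPKM), Dcn (19.8 and 64.0 RPKM) and Lum (7.98 and 33.0 RPKM) were past 2-fold higher in KO. Liver markers summed to 0.0701 and 0.0218 RPKM, and epithelial markers to 1.12 and 0.684 RPKM, of which Krt18 held 1.02 and 0.660 RPKM. Endothelial markers summed to 1.14 and 0.558 RPKM, of which Kdr held 1.01 and 0.397 RPKM. Of the adipocyte markers Adipoq, Plin1, Lep, Cfd and Cidec were below 0.1 RPKM in both, Fabp4 had 16.3 and 28.9 RPKM, and Pparg had 4.87 and 0.745 RPKM. Among 6 skeletal muscle markers 4 were below 0.1 RPKM in both libraries, while Acta1 had 12.6 and 4.26 RPKM. Among the 5 neural markers matched 4 were below 0.1 RPKM in both, while Tubb3 had 35.9 and 36.1 RPKM.

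The lines also differed in sex-linked transcripts. Xist, the RNA that silences 1 X chromosome of female cells, had 28.6 RPKM in wild-type and 0.05 in KO cells, and the Y-linked gene Ddx3y had 0.0174 and 4.18 RPKM. The X-linked genes of the lipid lists, Nsdhl, Ebp, Mbtps2, Pgrmc1 and Mid1ip1, had log2 ratios of -0.20, -0.01, -0.33, -0.33 and 0.05. Autosomal genes of the synthesis list ran from -0.38 (Sc4mol) to 0.37 (Dhcr7). Those of the SREBP list ran from -0.35 (Rnf139) to 0.31 (Srebf2). Over 325 chromosome X entries that reached 1 RPKM in each library the log2 ratio had a median of -0.13, against -0.06 over 10563 autosomal entries. Without its X-linked genes the synthesis list had a median of 0.04 over 20 genes. The part of the sex difference in these values was not tested. None of the 8 genes is X-linked.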

How the data were processed

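RNA of 1 wild-type and 1 NEAT1 KO MEF library was sequenced from poly-A RNA. The authors deposited 1 RPKM value per RefSeq entry (mapped sequence scaled by entry length and library size), with no normalization between libraries stated. The submitters' processing notes name CASAVA 1.8 and the builds mm10 and hg18, and the aligner is not given in the sources used here. Starts in the MEF files are counted from 0 and were raised by 1. They matched GENCODE M21 models of GRCm38 (mm10) for 1702 single-exon entries.

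From the RPKM values log2 ratios with a pseudocount of 1 were computed on all entries, and 2-fold was the call. Base counts were recovered from the step of each library, and exact Poisson and Clopper-Pearson intervals (95%) were computed. The 8 genes and the gene lists were chosen with earlier results of these data known. The genes named are the 8, Neat1, all genes of the synthesis, SREBP and oxysterol lists, and of other lists genes from those past 2-fold or the 2 most abundant, except some genes that are not reported here but stay in the list counts. Vldlr, Abca1, Abcg1, Mid1ip1, Ptprc, Aif1, Ctsb, 4930483K19Rik, Ddx3y and the adipocyte genes near 0 were named after their values were seen. Msmo1 was matched by its older symbol Sc4mol. Of the neural list, Map2 stands under the older symbol Mtap2 and was not matched. The settings varied were the pseudocount (0.1), an RPKM minimum (1), centring on the median, quantile normalization, 1 entry per symbol, and calls at 1.5-fold and 4-fold. Ratios of recovered base counts, and the synthesis list without chromosome X, were added after seeing the data. The log2 ratio and quantile normalization steps were tested on simulated data. The recovery of base counts, the intervals and the motif search were not. Python 3.11.15, numpy 2.4.6, pandas 2.3.3, scipy 1.17.1 and matplotlib 3.10.9 were used.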

Additional observations from a re-analysis of the deposited data

How the results depend on the processing

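With 1 library per genotype no replicate could be left out. No paired analysis was possible because each group has 1 library. Ch25h stayed the 1 gene of the 8 past 2-fold higher, with 0 lower, under each alternative run, and the log2 ratios of all 8 and of Neat1 moved by less than 0.585 (Neat1 from -3.34 to -3.81 with a pseudocount of 0.1). Idi1 changed sign, from -0.06 to 0.0026 on centring and 0.01 on quantile normalization. Idi1 has no value under the minimum of 1 RPKM, since it is below 1 RPKM in both libraries. Of all entries, 553 were higher and 593 lower at 1.5-fold, 52 and 4 at 4-fold, and 500 and 540 with a pseudocount of 0.1. With that pseudocount 1 LXR and efflux gene (Abcg1) was past 2-fold, and at 1.5-fold 1 uptake gene (Vldlr) was. At 4-fold 1 oxysterol gene (Ch25h) was left, and the median of the oxysterol list was 0.71 with the minimum of 1 RPKM, which leaves 4 of its 9 genes. Centring the human log2 ratios on their median gave 3.88 for HMGCS1, 2.17 for SQLE, 3.56 for IDI1, 3.29 for INSIG1, 1.63 for FDFT1, -0.75 for DHCR7, -0.022 for LSS and 0.70 for CH25H, and a pseudocount of 0.1 gave 0.85 for CH25H.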

Other observations

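The human genes of the same names were also read in the prostate cancer libraries, VCaP and VCaP ERα (made to overexpress the oestrogen receptor), 1 library each, after removal of ribosomal RNA. These are another species and another kind of library, so levels are not compared with those of the MEFs, and no test between the 2 libraries is possible. HMGCS1 had 17.7 RPKM in the VCaP-labelled library against 182.4 in VCaP ERα (log2 ratio 3.29). IDI1 had 23.6 and 192.2 RPKM (2.97), INSIG1 had 45.1 and 298.7 RPKM (2.70), SQLE had 31.4 and 95.6 RPKM (1.58), and FDFT1 had 32.1 and 66.8 RPKM (1.04). The last enzymes went the other way, with 67.1 and 26.0 RPKM for DHCR7 (-1.34) and 30.3 and 19.5 RPKM for LSS (-0.61). CH25H was listed at 0 in VCaP and had 0.0807 RPKM in VCaP ERα. The median log2 ratio of the 9754 entries that reached 1 RPKM in each was -0.59, and after centring on it LSS was at -0.02. Many genes differ between these libraries, and whether both came from the same line was not tested here.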
